A study of Arabidopsis thaliana with 12 samples.

Results

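The genes described here varied between harvests of Arabidopsis seedlings, but the pattern of the first day did not repeat on the next. They are 150 of 5845 candidate genes, out of 13264 nuclear genes named by the array annotation used here. Of 22810 probe sets, 13415 named 1 nuclear gene, and the others could not be chosen. A candidate was read from its brightest probe set annotated to that gene alone, with a mean intensity of at least 150 over 12 arrays. The 150 were chosen by their measured values: the Pearson correlation r between the 6 log2 intensities at 24 to 44 h and the 6 at 48 to 68 h was at or below 0, which held for 1742 candidates, and of these the 150 with the largest standard deviation (SD) of log2 intensity over the 12 arrays were taken. Their levels, ranges and profiles over time are therefore given as a description, with no test of them.

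The seedlings were Col-0 plants, a wild-type accession, that carried the reporter CCR2::LUCIFERASE, in which the promoter of a clock-controlled gene drives luciferase. They grew at 22 °C on medium with 3% sucrose under 7 days of 12 h light and 12 h dark and were then moved to constant white light, which all 12 harvests shared. RNA of whole seedlings was taken every 4 h at 24, 28, 32, 36, 40, 44, 48, 52, 56, 60, 64 and 68 h of constant light, with 1 array for each time. The first 6 harvests are called the first cycle and the last 6, at the same circadian times 24 h later, the second cycle.

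In constant light the plant circadian clock keeps running without an external signal, so the transcripts it controls rise and fall about once a day and return to a like level after a full turn. Other transcripts vary between harvests without such a return, and with a single array per time their variation has no replicate. In whole seedlings fewer cells of a type and less RNA per cell cannot be told apart.

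Array medians lay between 149.9 and 153.6, and log2 intensities of any pair of arrays correlated at 0.979 to 0.992. The scanner files place 7 arrays on 1 scan day (24 h and 32 to 52 h), 4 on another (56 to 68 h) and 1 on its own (28 h), so most of the second cycle was scanned apart from the first.

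The SD of log2 intensity of the 150 genes ran from 0.18 to 0.59 with a median of 0.21. The median was 0.12 over all candidates and 0.42 over the 150 most variable genes with r above 0, called repeating genes below. The median gene spanned a 1.65-fold range between its highest and lowest harvest, against 2.48-fold in repeating genes and 1.30-fold in all candidates. Of the 150, 20 (13.3%) spanned 2-fold or more, against 3.27% of candidates. The correlation between cycles went from -0.957 for AT5G51630 to -0.000648 for ICL. ICL encodes isocitrate lyase, the enzyme of the glyoxylate cycle that lets seedlings turn stored oil into sugar. In 35 genes (23.3%) r was at or below -0.5, against 7.51% of candidates, but the rule had kept only genes with r at or below 0. The genes were dimmer than the repeating ones: the median of their mean intensities was 229.6, against 429.2 in repeating genes and 289.8 in all candidates, and 106 of 150 (70.7%) had a mean of 300 or less, against 29.3% of repeating genes and 52.6% of candidates. The plot of r against SD shows that the chosen genes are the upper edge of a dense cloud and not a separate class.

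**Figure D1:**
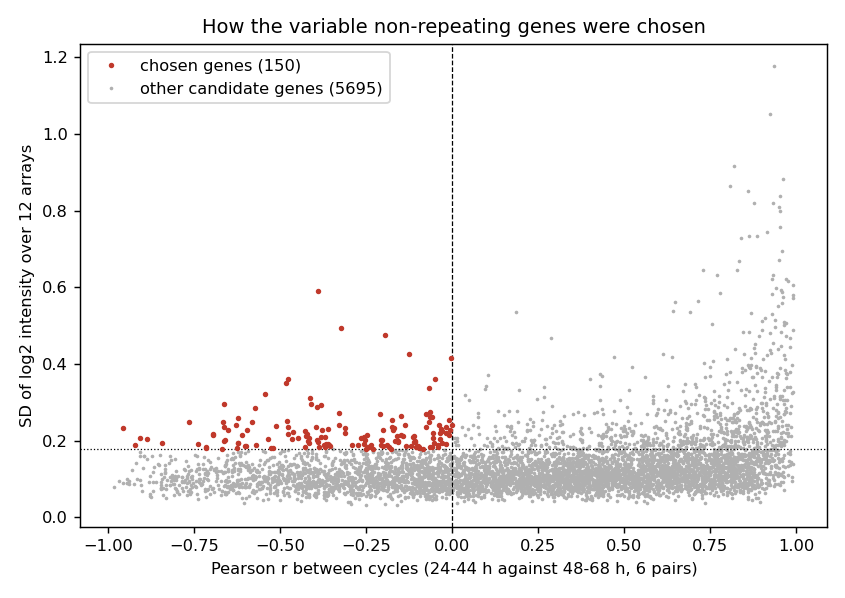
Pearson r between the cycles (x axis, 6 pairs of times) against the SD of log2 intensity over 12 arrays (y axis) for each candidate gene. The 150 chosen genes (red) lie left of r = 0 and above the dotted line at their lowest SD of 0.178, and the genes with the largest SD lie far to the right of them.

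At the limits of the rule the values were nearly continuous. YAB5 and AT1G80510 were the last genes taken by SD, at 0.179 and 0.178, and AT3G52220 and AT2G27290 were the first left out, both at 0.177. By correlation, AT3G54580 at -0.0047 and ICL were just inside, and AT3G23090 at 0.00209 and AT5G07740 at 0.00738 just outside. By level, EXPA16, a gene of the expansins that loosen cell walls, was inside with a mean of 150.01, and AT1G67050 was outside with 149.3.

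The label was checked in 3 ways. After a straight line over the 12 times was removed from each gene, 10 of the 150 had r above 0, and by rank (Spearman) 24 had a correlation above 0. A fit of a 24-h cosine and sine with a linear trend (limma, Benjamini-Hochberg adjustment over all candidates) called 18.9% of candidates rhythmic. It called 1 of the 150, AT3G28220, with a log2 amplitude of 0.27 and an adjusted p of 0.0255. Because r at or below 0 already chose against a daily repeat, nothing is read from that difference. Intensities of AT3G28220 over the 12 times were 792, 1118, 1032, 949, 877, 865, 1457, 1177, 1366, 979.7, 1012 and 1073. Its highest value stood at 48 h, and the value at the same circadian time in the first cycle, 24 h, was its lowest.

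The harvests at 44 and 48 h held many of the extremes. The highest of the 12 values fell at 44 h in 24 genes (16%, against 8.64% of candidates) and at 48 h in 23 genes (15.3%, against 6.88% of candidates). The lowest value fell at 44 h in 26 genes (17.3%, against 13.2% of candidates), at 48 h in 17 (11.3%, against 7.27%), at 52 h also in 17 (11.3%, against 10.4%) and at 36 h in 16 (10.7%, against 13.7%). In 85 of the 150 genes (56.7%) the highest or the lowest value, or both, lay at 1 of these 2 harvests, which was so for 35.1% of candidates. A departure at a single harvest adds to the SD by which the genes were chosen. The part of the rule in these shares was not tested.

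**Figure D2:**
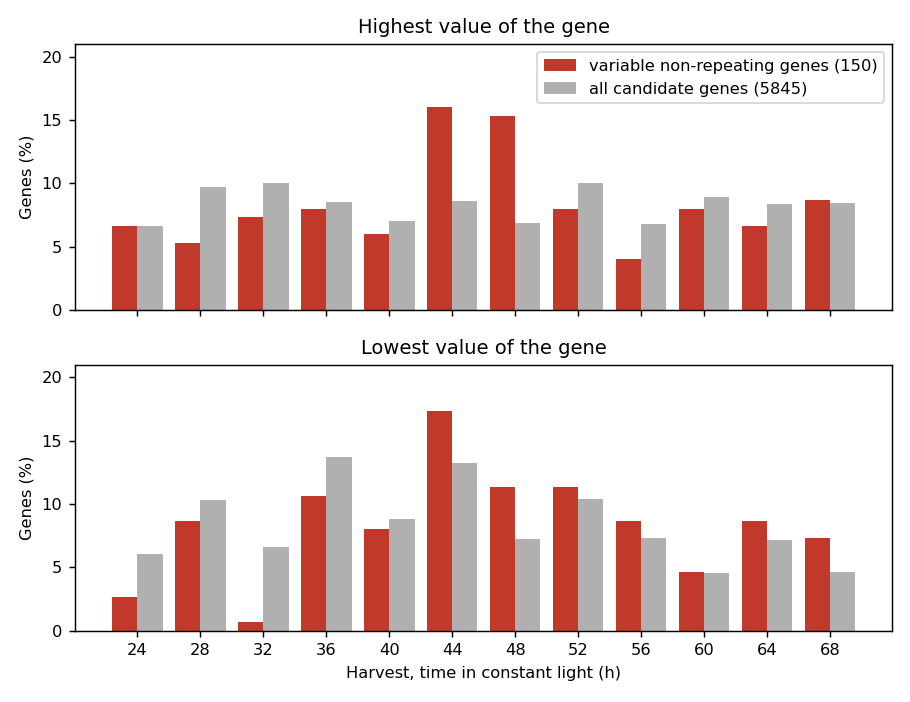
Percent of the 150 genes (red) and of all 5845 candidates (grey) whose highest value (top) or lowest value (bottom) fell at each harvest (x axis, h of constant light). The red bars for the highest value stand at 16% at 44 h and 15.3% at 48 h, with no other harvest above 8.67%.

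Clustering by shape (average linkage on 1 minus Pearson r, divided at a distance of 0.5) placed 109 genes in 7 groups of 8 or more, lettered A to G by size. The other 41 lay in 14 smaller groups, 3 of them of a single gene. The median r over all 11175 pairs of the 150 genes was 0.0047, so the genes do not share a common profile. Deviations given below are log2 intensities minus each gene's own mean over 12 arrays, averaged over a group.

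**Figure D3:**
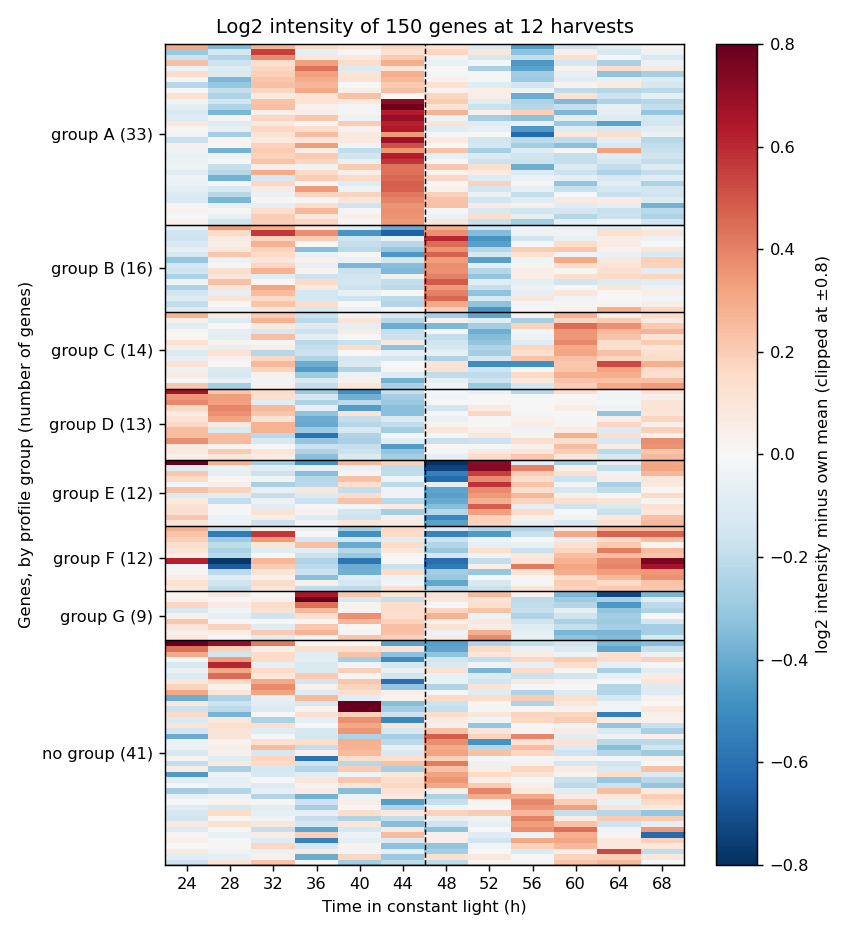
Log2 intensity minus the gene's own mean (colour, red high and blue low) for the 150 genes (rows, by group) at 12 harvests (columns, h of constant light). The red column at 44 h in group A, where all 33 genes exceed their own mean, and the red and blue columns at 48 h in groups B and E stand out.

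**Figure D4:**
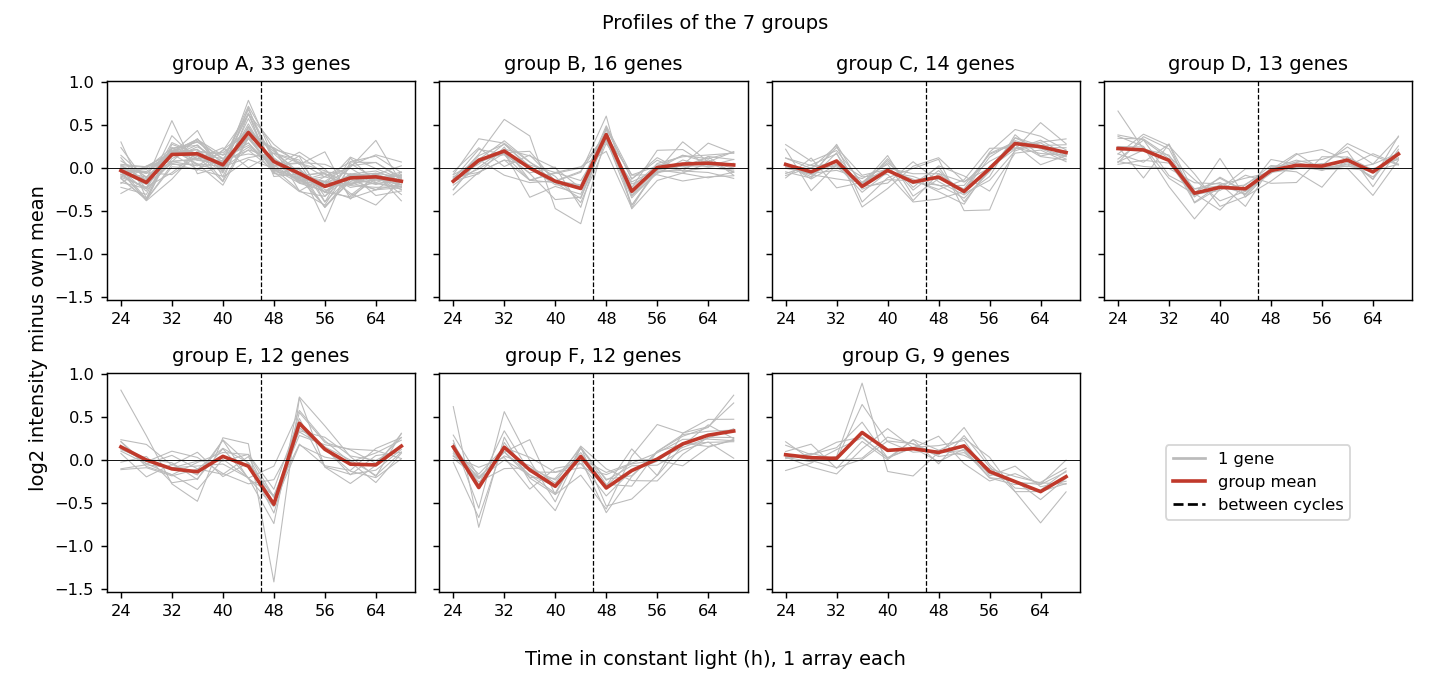
Log2 intensity minus own mean against time in constant light for the genes of each group (grey, 1 line a gene) and the group mean (red). The means reach 0.41 at 44 h in group A, 0.39 at 48 h in group B and -0.51 at 48 h in group E.

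Group A, with 33 genes, was high at 44 h. The group mean there was 0.41 above the genes' own means, all 33 genes lay above their own mean, and 23 had their highest value there. Its genes with a symbol included SPCH (SPEECHLESS), a basic helix-loop-helix transcription factor that starts the lineage of cells leading to stomata, and YAB5, a YABBY transcription factor of the lower side of leaves. SPCH measured 219, 202, 262, 242, 237, 368, 258, 212, 188, 176, 188 and 191 over the 12 times. It was highest at 44 h, and its 4 values from 56 to 68 h were below all of the others. Those 4 arrays formed the second scan day, and the mean of group A on them lay between -0.21 and -0.10. Only 1 of the 33 genes averaged higher in the second cycle than in the first. YAB5 measured 171, 151, 191, 189, 170.2, 213, 178, 148, 139, 159.6, 164 and 151. It too was highest at 44 h, and its correlation with the group mean, 0.954, was the highest of the group.

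Other genes of group A with a symbol have varied roles. FU (FUSED) encodes a protein kinase needed for cell division, AGL80 a MADS-box transcription factor known from the central cell of the ovule, UBP20 a ubiquitin-specific protease and SWEET3 a member of the sugar transporter family SWEET. FU measured 265, 259.9, 293, 325, 254, 367, 259, 234, 212, 204, 236 and 224, highest at 44 h. AGL80 was highest at 36 h, with 343, and had 334 at 44 h. SWEET3 was highest at 40 h, with 176, against 149.5 at 44 h. AT1G32020 and AT5G11430 stood apart at 44 h, at 294 and 300.3, with every other value at or below 201.

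At 44 h dim probe sets in general also held their highest value more often than bright ones. When all named genes were divided by mean intensity into 5 bins of equal size, the share with the highest value at 44 h was 22.5% in the dimmest bin and 7.01% in the brightest. Among 807 pseudogenes, with a median mean of 48.8, it was 23.9%. Among the 150 genes it was 19.8% of the 106 with a mean of 150 to 300 and 6.82% of the 44 with a mean above 300, and among candidates with a mean of 150 to 300 it was 10.1%. Group A was dimmer than the rest of the 150, with means from 150.4 to 362.8 and a median of 190.7, against a median of 240.8 in the other 117 genes. Its median lies in the fourth of the 5 bins, with means of 173.0 to 316.4, where the share highest at 44 h was 9.665%. In the third bin, with means of 102.3 to 173.0, that share was 14.3%. The share with the highest value at 36 h was also larger in dim bins. It was 13.5% in the dimmest bin, 16.4% in the second and 6.5% in the brightest. At 48 h it was 5.04% in the dimmest bin and 7.08% in the brightest. The part of signal level in the 44-h peak of group A was not tested, nor was that in the 36-h peak of group G, described below. MUTE, which acts after SPCH in the stomatal lineage and was looked at after these values were seen, had a mean of 64.9, below the level limit, and was highest at 44 h, with 104.2. FMA (FAMA), which acts last of these 3, had a mean of 129.5. It was lowest at 44 h, with 115.4, close to its 115.7 at 64 h. When the rule was applied without the 44-h array, and without its partner in r, 15 of the 33 genes of group A were chosen again.

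**Figure D5:**
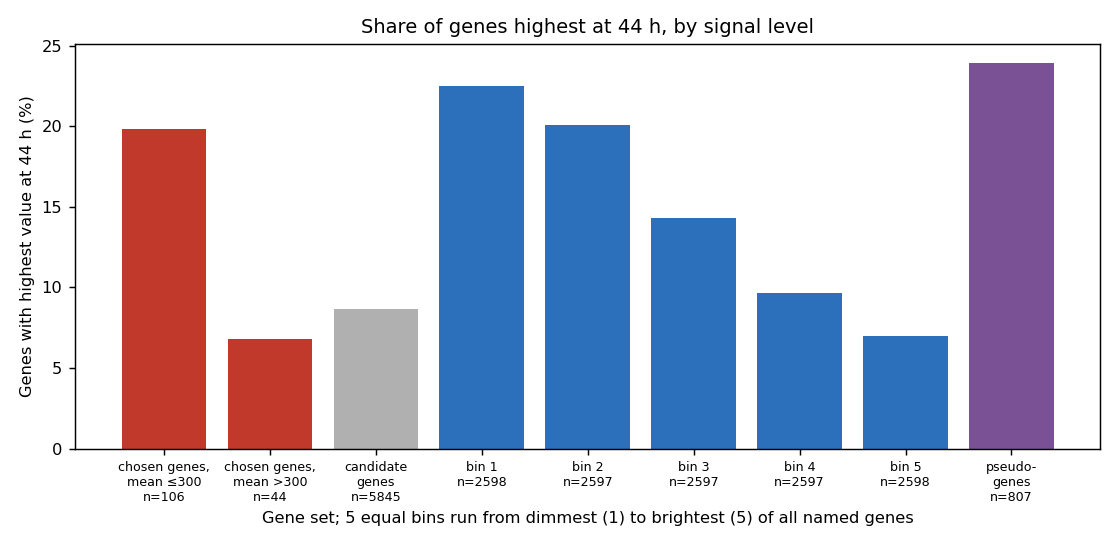
Percent of genes with their highest value at 44 h (y axis) in the chosen genes by level (red), in all candidates (grey), in 5 equal bins of all named genes by mean intensity from dimmest to brightest (blue) and in pseudogenes (purple). The share is 22.5% in the dimmest bin, 7.01% in the brightest and 19.8% in chosen genes with a mean of up to 300.

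Group B, with 16 genes, was high at 48 h and low at 52 h. All 16 genes lay below their own mean at 52 h and all 16 above it at 48 h, and the group mean was 0.66 lower at 52 h than at 48 h. At the same circadian times a day earlier the step ran the other way, 0.24 higher at 28 h than at 24 h. All 5 genes of the group that have a symbol are known from seeds. M17, LEA18, LEA and LEA4-5 belong to the late embryogenesis abundant genes, whose products protect drying embryos and other tissues short of water, and ATOEP16-2 encodes the seed form of a channel protein of the outer plastid envelope.

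ATOEP16-2 measured 141, 174, 191, 159.8, 139.8, 123, 202, 135, 163, 159, 172 and 148 over the 12 times. LEA4-5 measured 409, 433, 537, 411, 435, 454, 599, 363, 434, 484, 458 and 471. LEA18 measured 316, 401, 386, 332, 348, 252, 479, 316, 375, 337, 333 and 318. All 3 were highest at 48 h, and the next highest value of each was at 28 or 32 h. M17 was the gene of the group with the widest range, 2.31-fold, with 185, 231, 306, 268, 149, 132, 267, 163, 201, 203, 227 and 222. Its highest value was at 32 h and its lowest at 44 h, and its values at 36 and 48 h were the next highest. The dehydrin gene LEA had 115 at 52 h and 195 at 48 h, its lowest and highest values. Of the genes without a symbol, AT1G04560 followed the group mean most closely, at r = 0.969, with 313 at 52 h and 575 at 48 h.

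ICL was in no described group but had its extremes at the same harvests. It measured 917, 965, 1032, 1041, 1151, 819, 1228, 682, 1027, 1017, 817 and 816, highest at 48 h and lowest at 52 h. A list of 12 genes known from seeds was drawn up after values were seen. It held ICL and the group B genes with a symbol, all lower at 52 h than at 48 h. These genes were chosen on the same arrays, and group B was formed by its shape, so nothing is read from their direction. Of the 6 listed genes that were not chosen, 4 were lower at 52 h, against 50.5% of candidates. Their log2 differences were -0.30 for AtLEA4-1, -0.14 for OLEO3, -0.11 for AT2G44060 and -0.008 for M10. AT2G46140 and AT1G54410 were higher at 52 h, by 0.59 and 0.42. M10 and OLEO3 lay below the level limit. When the rule was applied without the 48-h array, 8 of the 16 genes of group B were chosen again.

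Group E, with 12 genes, had the opposite step. The group mean deviation was 0.43 at 52 h and -0.51 at 48 h, so that it was 0.94 higher at 52 h than at 48 h, while it was 0.15 lower at 28 h than at 24 h. Every one of the 12 genes lay above its own mean at 52 h and below it at 48 h, and over the 12 times the mean of group E correlated with that of group B at -0.757. AT5G20790 varied most of all 150 genes, with an SD of 0.59 and a 4.68-fold range. It measured 862, 597, 405, 352, 588, 559.9, 184, 810.0, 464, 407, 470.5 and 607. The value at 48 h was far below the rest, while 24 h, the same circadian time in the first cycle, held the highest.

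AT2G43535 was brighter and measured 1372, 1417, 1382, 1403, 1425, 1274, 883, 2444, 1936, 1512, 1289 and 1825. Its first 6 values lay within a narrow band, and the lowest and the highest value followed each other at 48 and 52 h. AT4G01390 measured 225, 185, 173, 153, 196, 168, 133, 285, 224, 211, 189 and 233, again lowest at 48 h and highest at 52 h. RALFL27, of the small secreted RALF-like peptides, had 214 at 52 h and 123 at 48 h, its extremes. Without the 48-h array, 3 of the 12 genes of group E were chosen again.

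Marker genes of tissues were read at the same pair of harvests. All 3 root markers with a named probe set were higher at 52 h than at 48 h: EXPA7, with 249.7 at 52 h and 178.2 at 48 h, EXPA18, with 458 at 52 h and 315 at 48 h, and PYK10, with 10841 at 52 h and 10681 at 48 h. Of the 3 leaf markers, LHCB4.1 and LHCB4.2 were higher and RCA lower at 52 h than at 48 h. The guard cell marker FAMA had 125.4 at 52 h and 122.4 at 48 h. PYK10 and FAMA thus differed little. All 7 of these markers differed in the same direction between 28 h and 24 h. Those are the same circadian times a day earlier, where a daily rhythm of a marker would give the same direction too. Nothing about the tissue sampled is therefore read from it. KAT1 and MYB60, the other guard cell markers, had no named probe set here. The fourth root marker, COBL9, and the seed storage markers CRA1, SESA1 and OLEO1 had no named probe set here. The part of the tissue sampled in the steps of groups B and E was not tested.

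Groups F and C were high late in the series. In group F, with 12 genes, the mean rose to 0.34 at 68 h and was low at 28, 40 and 48 h, at -0.32, -0.30 and -0.32, where all 12 genes were below their own mean. AT3G28550 measured 376, 143, 294, 206, 163, 246, 160.4, 214, 262, 297, 318 and 413. Its lowest values were at 28, 40 and 48 h, and after 48 h it climbed from harvest to harvest. AT3G54580 measured 444, 284, 521, 391, 343, 400.3, 305, 467, 602, 562, 591 and 715, with the same low points at 28, 40 and 48 h. AT3G24480 had its highest value, 493, at 32 h and its lowest, 227, at 28 h. The array at 28 h was the only one of its scan day, and the array at 48 h shared its scan day with 6 others. The group mean was highest at 60, 64 and 68 h, at 0.19, 0.29 and 0.34, and those arrays were all of the second scan day. Of the 12 genes, 9 were chosen again without the 28-h array and 5 without the 48-h array.

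In group C, with 14 genes, every gene was above its own mean at 60, 64 and 68 h and below it at 36 and 52 h. FUG1, a translation initiation factor of the chloroplast, measured 1279, 1502, 1181, 1234, 1384, 1324, 1324, 1145, 1512, 1727, 1628 and 1517. Its highest values were at 60 and 64 h, with the lowest at 52 h. RAD4, of nucleotide excision repair of DNA, was highest at 32 h with 251 and had 234 at 60 h and 172 at 56 h. AT1G64560, annotated as a transcribed pseudogene, had 201 at 60 h and 112 at 44 h. Of the 14 genes, 4 were chosen again without the 60-h array and 7 without the 36-h or the 52-h array. The 3 late harvests in which group C was high, and those in which group G was low, were all of the second scan day.

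Group G, with 9 genes, was high at 36 h and low from 60 h on, and its mean correlated with that of group C at -0.891. GLC (GLAUCE), known from the fertilization of the central cell, measured 215, 199, 211, 259, 194, 210.5, 188, 208, 166, 162, 139 and 165. It was highest at 36 h, and its last 4 values were below all the earlier ones. CXE20, a carboxylesterase gene, measured 245, 248, 275, 287, 242, 280.1, 231, 289.9, 226, 185, 185 and 197. It was highest at 52 h, with 36 h close to it. AT3G03970 had 168 at 64 h and 436 at 36 h, a 2.59-fold range. Leaving out the array at 36, 52, 60 or 64 h left 5 of the 9 genes chosen again in each case.

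Group D, with 13 genes, was high at the first harvests, 0.23 at 24 h and 0.21 at 28 h, and low from 36 to 44 h, with the lowest mean at 36 h, -0.29. PSY1R, the receptor kinase of the sulfated growth peptide PSY1, measured 279.6, 326, 280.5, 198, 228, 239.8, 251, 258, 266, 258, 268 and 293. Its lowest value, 198, was at 36 h, and all later values lay between 228 and 293. VPS24.1, a subunit of the ESCRT-III complex that sorts membrane proteins, had its highest value, 351, at 68 h and its lowest, 232, at 36 h. Of the 13 genes, 6 were chosen again without the 44-h or the 68-h array.

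A few genes, in and outside the groups, departed at a single harvest. A highest value that exceeded the next highest by 0.5 or more on the log2 scale was found in 5 of the 150 genes, in 12 of all 5845 candidates and in 1 of the 150 repeating genes. AT3G25940 measured 194, 163, 173, 167, 364, 145, 163, 184, 154, 195, 179 and 183. The value at 40 h stood 0.90 above the next, and the other 11 values were within a narrow band. AT5G44730 had 307 at 40 h and no other value above 188, and AT5G51620 of group G had 283 at 36 h and no other value above 164. The others were AT1G32020 and AT5G11430 of group A. The gene 2A6, of the family of 2-oxoglutarate-dependent dioxygenases, had 412 at 28 h, with its other values between 245 and 298.

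Change between the cycles was read from the difference of the second minus the first cycle with circadian time as a factor, fitted over all candidates. The fit called 0.0171% of candidates at an adjusted p below 0.05 (limma, Benjamini-Hochberg) and 0 of the 150 genes. At an unadjusted p below 0.05 it called 43 of the 150, 18 higher and 25 lower in the second cycle, against 11.8% of candidates, 7.1% higher and 4.7% lower. With scan day as a block, 7 were called at the adjusted threshold, 2 higher and 5 lower, against 0.291% of candidates. Because these arrays chose the genes, nothing is read from these counts. On average 78 of the 150 (52.0%) were higher in the second cycle, against 56.3% of candidates, and in 96 the arrays of the first scan day alone (48 and 52 h minus 24 and 32 to 44 h) gave the same sign as all 12. Unlike the fit, this difference within the first scan day is not matched for circadian time. Its second-cycle part is the arrays at 48 and 52 h alone, where groups B and E had their extremes. The same count was not made over candidates.

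AT1G22690 fell most. It measured 919, 724, 597, 452, 446, 331, 330.5, 379, 391, 402, 348 and 353, and averaged 367 in the second cycle and 578 in the first (log2 difference -0.58, SE 0.16, adjusted p = 0.223). The fall was over by 44 h, after which the values stayed between 330.5 and 402. FU (-0.36), AT3G03970 (-0.35), AT1G73120 (-0.35) and GLC (-0.33) came next. Within the first scan day, and not matched for circadian time, the differences were -0.54 for AT1G22690, -0.28 for FU and -0.31 for AT1G73120. They were -0.01 for AT3G03970 and -0.13 for GLC. AT3G54580 rose most, with a mean of 540 in the second cycle and 397 in the first (0.42, SE 0.15, adjusted p = 0.302), but within the first scan day its difference was -0.14. AT3G28220 (0.32), BGLU33 (0.27), a beta-glucosidase gene, AT3G29075 (0.26) and AT5G23890 (0.26) followed. Within the first scan day these were 0.54 for AT3G28220, 0.13 for BGLU33, -0.02 for AT3G29075 and 0.10 for AT5G23890. BGLU33 measured 183, 178, 184, 163, 197, 165, 192, 196, 248, 245, 209 and 206. All of its values from 56 h on were above every earlier one, and those 4 arrays formed the second scan day.

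Pairs of the 150 that lie within 5 protein-coding genes of each other numbered 10, against 8 among the repeating genes. AT2G19385 and AT2G19390, direct neighbours, correlated at 0.721 over the 12 times. AT1G67865 and AT1G67870, also direct neighbours, correlated at 0.715. AT1G67870 measured 1976, 1822, 1966, 1673, 2103, 1518, 1743, 1609, 2139, 2347, 2086 and 2032, lowest at 44 h, where AT1G67865 was lowest too, with 256. SWEET3 and SPCH, both of group A and 2 genes apart, correlated at 0.382. The other 7 pairs lay between -0.280 and 0.253. The points of each pair share the arrays, and cross-hybridisation between neighbours of like sequence was not tested.

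For 6 of the 150 genes a further probe set names the same gene, read from the same RNA on the same arrays. The r between both probe sets over 12 times was 0.729 for AT3G56590, 0.478 for AT3G15550, 0.289 for FU, 0.155 for 2A6, 0.131 for GLC and -0.164 for AT5G49680. The further probe set of FU had a mean of 152.3 and its highest value at 32 h, and it had 146.9 at 44 h, where the probe set that chose FU was highest. The further probe set of 2A6 had 103.2 at 28 h, within its range of 92.0 to 113.0, where the probe set that chose the gene stood apart. The further probe sets were the dimmer ones by the rule, with means from 55.3 to 152.3.

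Of the 150 genes 23 (15.3%) carry a symbol other than the locus name, against 14.7% of candidates. Families were searched by keyword in symbols and synonyms only, since the gene table used here holds no descriptions. The search found 1 of the 150, EXPA16, and 24 candidates for the cell wall, and it missed genes such as SPCH, FU, SWEET3 and PDF2.5, whose names hold none of the keywords, so its counts say nothing about how many of the 150 belong to a family. EXPA16 measured 123, 126, 142, 156, 117, 162, 153, 195, 157, 139.8, 176 and 156, highest at 52 h and lowest at 40 h. PDF2.5, a plant defensin gene, had its highest value, 203, at 24 h and 131 at both 44 and 48 h.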

How the data were processed

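RNA of 12 seedling harvests was hybridised to Affymetrix ATH1 arrays of 22810 probe sets. The values used were the linear intensities the authors deposited in the series matrix. The study's methods analysed model-based expression indexes from dChip and took presence calls from MAS5, which the submitters' processing notes also name. Whether the deposited values are the dChip indexes, and how they were scaled, was not stated in the sources read. The deposited scanner parameter files (other text fields, with no expression values) gave the scan day only. Probe sets were named through the platform annotation and a RefSeq gene table (assembly TAIR10.1), used for names and neighbours only; 13415 named 1 nuclear gene. Probe sets ending _s_at or _x_at, which can bind several transcripts, were left out, and values below 1 were set to 1 before log2. The fits used limma 3.58.1 in R 4.3.3 over 5845 candidate genes: second minus first cycle with circadian time as a factor (5 residual degrees of freedom), and a 24-h cosine and sine with a linear trend. With 1 array per time, the p-values set a shift between cycles or a 24-h curve against the scatter of arrays around the fit. They do not measure the spread between plants. On data simulated for 5845 genes, the cycle fit called 98.0% of genes changed by 0.5 (log2) and 0.142% of the unchanged ones. The 200 changed genes were drawn from all candidates, whose median SD was 0.12, against 0.21 in the 150. The 98.0% therefore does not apply to the 150, for which no such share was simulated. Precision is limited by having 12 arrays. The members and the gene lists were chosen with earlier results of these data known. Genes named are the most variable, those closest to each group mean, those at the limits of the rule, neighbours, those with a further probe set and the largest changes between cycles. Other named genes, most of them genes with a symbol, were chosen after their values were seen. Promoter motifs were not analysed here.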

Additional observations from a re-analysis of the deposited data

How the results depend on the processing

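Of the 150, 71 were chosen again with a mean of at least 100 and 63 with a mean of at least 250, a limit that most of them lie below (median of their means 229.6), and 74 with the 44-h and 48-h arrays both left out, an alternative added after seeing the data. Leaving out 1 array at a time kept 101 (without 48 h) to 121. Of the other settings, log2(value + 32) kept 137, quantile normalization 134, Spearman's rho 120, a linear trend removed 120, and probe sets ending _s_at or _x_at included 145. Calls between the cycles were 0 higher and 0 lower. With scan day as a block they were 2 higher and 5 lower, and at an unadjusted p below 0.05, added after seeing the data, 18 higher and 25 lower. Leaving out 1 array gave 0 to 1 higher (1 without 24 or 48 h) and 0 to 3 lower (3 without 28 or 52 h), and every other setting run gave 0. For the 24-h rhythm, 1 gene was called; there were 0 with no trend, 3 with scan day as a block, 13 at an unadjusted p below 0.05 and 0 to 10 on leaving out 1 array, with 10 without 48 h, 6 without 40 h, 5 without 52 or 68 h, 2 without 24 or 32 h and 0 without 28, 44 or 56 h. The cause of these differences was not tested. The cycle fit already paired arrays of the same circadian time. No paired analysis by replicate number could be made, with 1 array at each time. The arrays have no replicate at any time, so no gene's departure at a single harvest has an error, and 106 of the 150 had a mean of 300 or less.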
